A study of Mus musculus with 5 samples.

Results

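The genes that break down and rebuild the extracellular matrix were followed in mouse thyroid tumor cell lines that carried BrafV600E, a kinase mutation that is common in papillary thyroid cancer. Members were all genes whose symbol is Mmp, Timp or Adamts followed by a number, together with Plau, Plaur and Plat. In all, 42 such genes were listed in at least 1 library, out of 17923 genes listed. They were 20 Mmp genes (matrix metalloproteinases), 15 Adamts genes (secreted metalloproteinases with thrombospondin repeats), 4 Timp genes (tissue inhibitors of metalloproteinases) and the 3 genes of the plasminogen activators and their receptor. Another 7 genes whose symbols meet the same rule (Adamts8, Adamts18, Adamts19, Adamts20, Mmp1b, Mmp20 and Mmp21) were listed in no library.

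RNA sequencing covered 2 libraries labelled BVE-Ctnnb1wt (wt) and 3 labelled BVE-Ctnnb1null (null). Ctnnb1, which encodes β-catenin, is given as deleted in the null lines. All 5 came from cultured lines grown out of tumors with BrafV600E, and the driver of the recombination is not given in the sources used here. The wt libraries share a line name and passage 20, and differ in thyrotropin (TSH), absent for replicate 1 and present for replicate 2. The null libraries carried 3 line names, BVECTN_4 at passage 8 without TSH (replicate 1), BVECTN_4A at passage 11 (replicate 2) and BVECTN_5 at passage 7 (replicate 3), and the labels say nothing on TSH for the last pair. The protocol text instead speaks of about 25 passages for wt and 20 for null cells, and of medium with 4 mU/mL TSH. Effects of the line, of its passage and of the genotype cannot be told apart here, and the p-values below measure only the spread between these 5 libraries. TSH cannot be set apart either, since it is not stated for null replicates 2 and 3. The wt libraries differ in TSH, so that their spread below is not one between replicates of 1 condition. Estimated read counts summed to 30432737 and 30713079 in the wt libraries and to 29929677, 29360002 and 29415980 in null replicates 1, 2 and 3, so that a gene without counts may still have had up to 3, or about 0.1 CPM (counts scaled to the library total), by counting error alone. Levels are given in FPKM, which scales the count to transcript length and to the library total, always in the order wt replicates 1 and 2, then null replicates 1, 2 and 3.

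Matrix metalloproteinases are zinc enzymes made as inactive precursors, which are either secreted or held in the cell membrane and which cut collagens, laminins and other matrix proteins once activated. TIMP proteins block their active site, while ADAMTS enzymes process procollagen or cut large proteoglycans such as aggrecan and versican. Urokinase (Plau) and tissue plasminogen activator (Plat) turn plasminogen into plasmin, which dissolves fibrin and can activate metalloproteinase precursors, and the urokinase receptor (Plaur) keeps this reaction at the cell surface. Several of these genes, Mmp7 best known among them, are classical targets of β-catenin in gut epithelium, and many respond to MAPK signaling through AP-1 factors.

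Before the members, the libraries themselves were checked against their labels. Ctnnb1 was at 59.3 and 73.8 FPKM in the libraries labelled wt and at 124.6, 196.3 and 117.8 FPKM in those labelled null, so that in FPKM every library labelled null was higher and not lower. In CPM after TMM scaling, which edgeR uses to even out differences in library composition, the groups overlapped, with 251 and 356 in wt and 418, 572 and 344 in null. A total over the whole transcript cannot show the loss of some of its exons, and which exons the deletion removes is not given in the sources used here, so that this level does not check the deletion. The difference was 0.55 ± 0.44 on the log2 scale (SE, edgeR's quasi-likelihood test, adjusted p = 0.517). In the text below, wt and null stand for what the libraries were labelled.

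The null libraries also stood apart from each other in cell type markers. In null replicate 1 the 10 epithelial markers summed to 14200 FPKM against 1110 and 1790 in the wt libraries, led by Krt7 at 5131 FPKM, while the 14 fibroblast and mesenchymal markers summed to 88.4 FPKM against 1840 and 3730. Null replicate 2 had Cdh1 and Epcam, which define epithelial cells, at 0, with 706 FPKM over the epithelial list and 3080 over the mesenchymal list, led by Vim. Null replicate 3 had 1470 FPKM of epithelial and 2920 FPKM of mesenchymal markers, and it held Postn at 101.6, Dcn at 84.7 and Thy1 at 88.5 FPKM, all at or under 0.24 FPKM in the other libraries. Of the thyroid markers, Foxe1, Duox2 and Slc26a4 were at or under 0.09 FPKM in every library, Tg was at or under 0.86 FPKM, and Nkx2-1 was present at 9.21, 15.0, 9.26, 34.8 and 0.26 FPKM. Pax8 was at 0.40, 0.17, 18.2, 12.8 and 2.56 FPKM, higher in every null library and the only gene of the list called by DESeq2, while Slc5a5 reached 6.48 FPKM in null replicate 1 and Hhex 20.2 FPKM in null replicate 2. The 13 thyroid markers together came to 15.3, 20.6, 35.2, 68.6 and 4.84 FPKM, led by Nkx2-1 or Pax8. Of the macrophage and leukocyte list, Ptprc and Adgre1, which define these cells, were listed in no library, while its 6 listed genes summed to 11.4, 21.7, 124, 5.06 and 45.4 FPKM, led by Cd68 or Cd14. Ly6g and Mpo were likewise listed in no library, and the neutrophil list stayed at or under 0.87 FPKM and the endothelial list at or under 0.68 FPKM in sum. In bulk RNA, fewer cells of a type and less RNA per cell cannot be told apart, and the part of cell type in the results below was not tested.

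Most of the matrix protease message in these cells was inhibitor and plasminogen system. The 42 members summed to 749 and 752 FPKM in the wt libraries and to 669, 891 and 1110 FPKM in the null libraries. Timp2 alone held 45.2% and 52.9% of that sum in wt and 36.6%, 49.9% and 17.2% in null replicates 1, 2 and 3. All 20 Mmp genes together reached only 150.0 and 157 FPKM in wt and 184, 126 and 132 FPKM in null, and the 15 Adamts genes together came to between 8.74 and 39.7 FPKM. Of the 42 members, 15 stayed under 1 FPKM in every library.

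**Figure D1:**
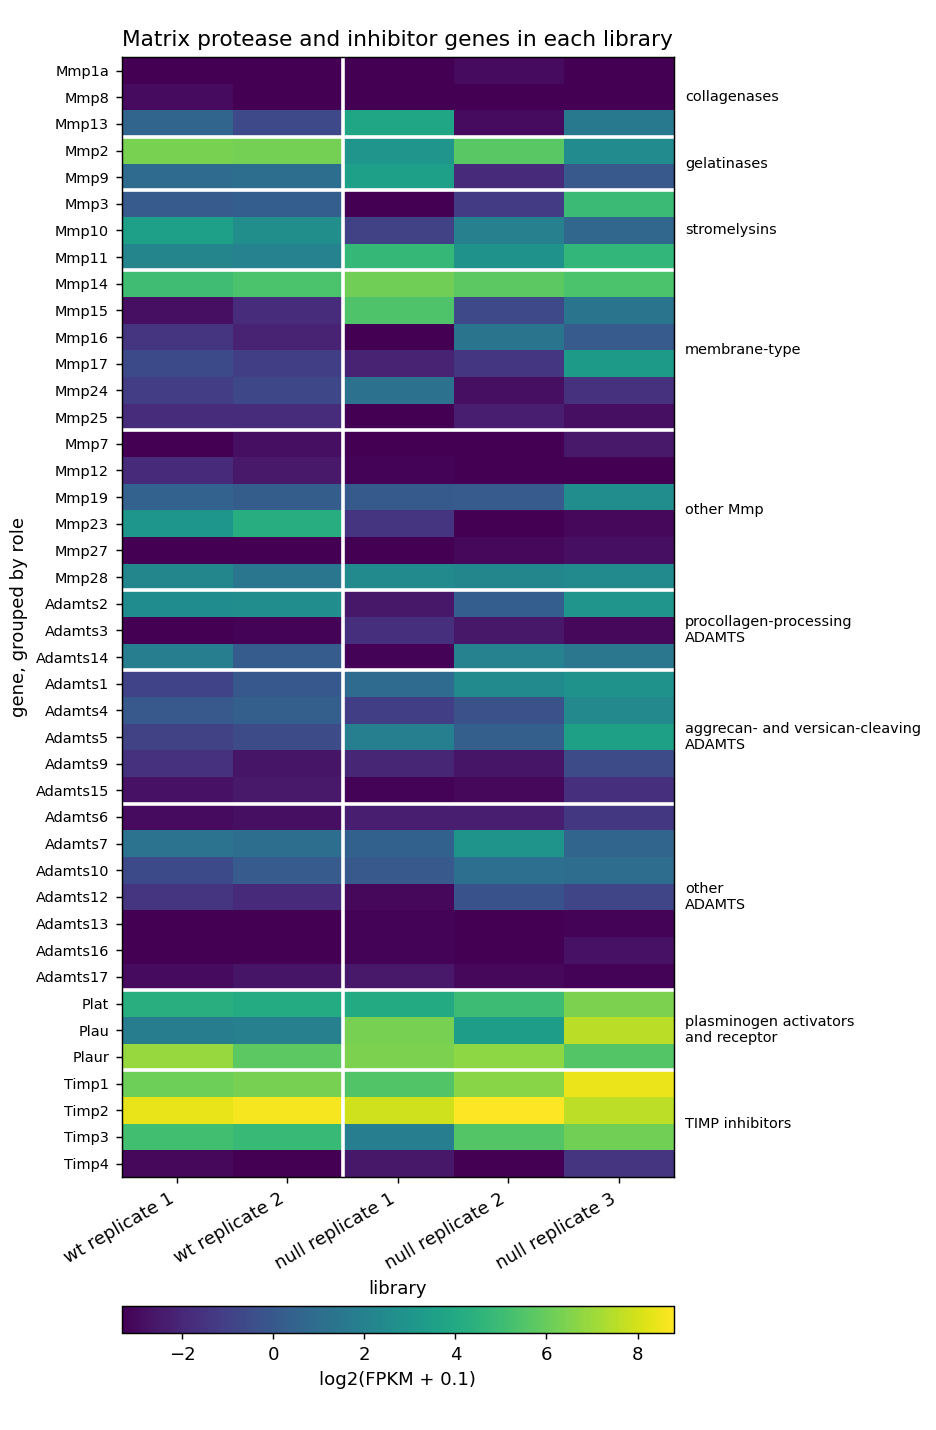
Level of each of the 42 genes in each library, as log2(FPKM + 0.1), with genes in rows grouped by role and the 5 libraries in columns (wt left of the white line, null right of it). The 3 leading Timp genes, Plaur, Mmp14 and Plat are bright in most columns, and the 3 null columns differ from each other in most rows, with Timp3 and Mmp2 dim in null replicate 1 and Mmp3, Mmp17 and Timp1 brightest in null replicate 3.

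No member passed the test between the groups. edgeR's quasi-likelihood test on TMM-normalized counts with Benjamini-Hochberg adjustment covered 34 of the 42 members among 13240 genes, and at an adjusted p of 0.05 it called 0 members higher and 0 lower, beside 0.0% of all genes in either direction. The lowest adjusted p was 0.18 among members and 0.0845 among all genes. At an unadjusted p under 0.05 there were 4 members higher in null (Plau, Mmp15, Adamts1 and Adamts5) and 3 lower (Mmp23, Mmp10 and Mmp2), beside 12.4% and 6.07% of all genes tested. DESeq2 called 3 members higher (Plau, Mmp15 and Adamts5) and 2 lower (Mmp23 and Mmp10), beside 8.48% and 3.71% of the genes it gave an adjusted p, and gave none for Mmp3. Over the 34 members the log2 fold change was above 0 for 21 and below 0 for 13, or 61.8% above 0 beside 59.3% of all genes. Their median was 0.38 beside 0.29 over all genes, and it was -0.19 beside 0.16 without null replicate 3. When counts were scaled to library totals alone, these medians were 0.94 and 0.87. The leading 10 genes of a library made up 14.3% and 15.0% of its counts in wt but 6.93%, 8.0% and 7.92% in null.

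**Figure D2:**
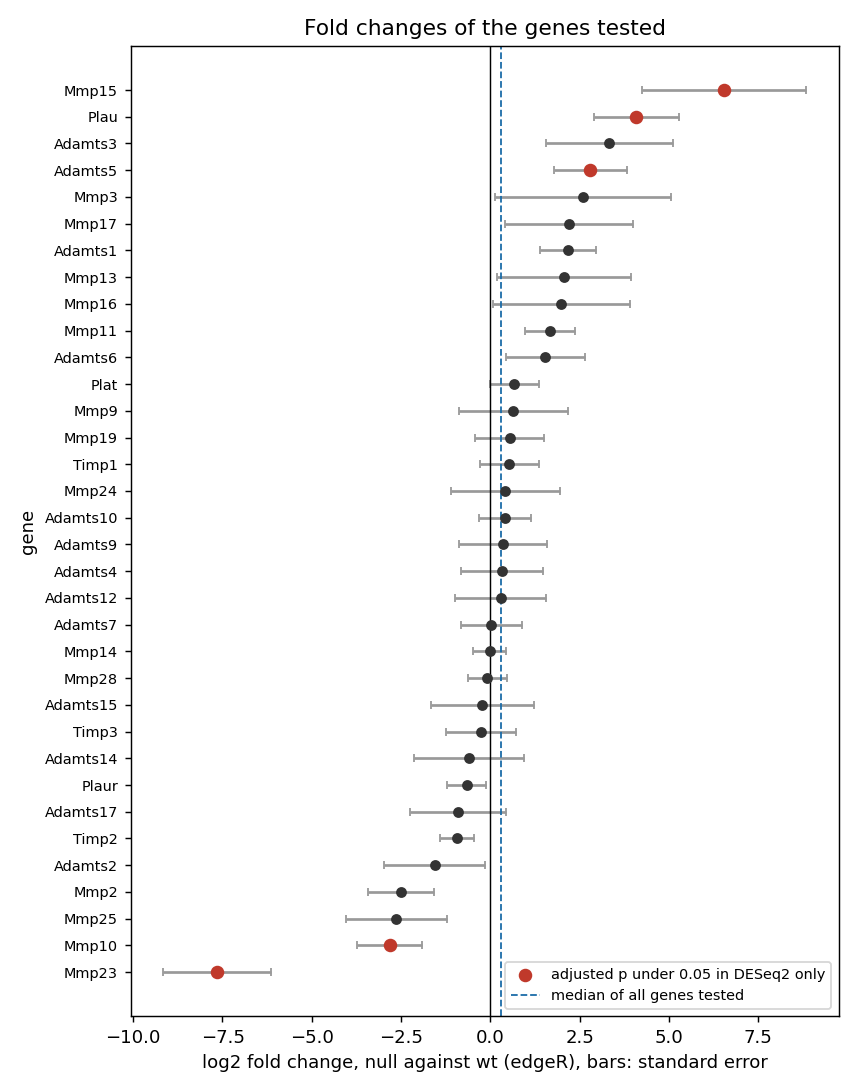
Log2 fold change of null against wt for the 34 genes tested by edgeR, with bars of 1 standard error, a solid line at 0 and a dashed line at the median of all genes tested, 0.29. Red points are genes with an adjusted p under 0.05 by DESeq2 only, and the bars are widest for Mmp3 (2.46) and Mmp15 (2.30).

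The null libraries differed more from each other in these genes than the wt libraries did, which is given here as a description with no test. Between the wt libraries the median member differed by 0.30 on the log2(FPKM + 0.1) scale, less than the median gene at 0.40. Among the null libraries the median range was 2.64 for members and 1.43 for all genes tested, and each pair of null libraries showed the same order. This pairwise difference had a median of 1.53 for members and 0.97 for genes between null replicates 1 and 2, 1.61 and 0.95 between replicates 1 and 3, and 1.35 and 0.70 between replicates 2 and 3. Of the members described in full below, only Mmp14 and Mmp28 differed by less than 2-fold between null libraries. Several of the others (Mmp3, Mmp17, Mmp19 and Adamts4 through null replicate 3, Mmp9 and Mmp13 through null replicate 1) were abundant enough for a full description in 1 null library only, so that a wide null spread was built into that choice and no count over them is given. Both wt libraries came from 1 line and differed in TSH, and the null libraries came from 3 line names. Spreads due to line, TSH and genotype therefore cannot be told apart.

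Plau, which encodes urokinase, stood higher in every null library than in both wt libraries. It was at 3.44 and 3.75 FPKM in wt and at 80.1, 10.6 and 187 FPKM in null, and the null libraries differed from each other 17.7-fold. The means were 3.59 ± 0.22 FPKM (SD, n = 2) and 92.6 ± 88.9 FPKM (SD, n = 3), a ratio of 25.7. On the count scale Plau had a log2 fold change of 4.09 ± 1.20 (SE), with an adjusted p of 0.194 by edgeR's quasi-likelihood test and 0.00268 by DESeq2, and from 0.00268 to 0.841 over the 15 alternative settings. The upper end, 0.841 here and for the genes below, comes from the fit without wt replicate 2, in which the lone wt library is assumed to vary like the null group. The fold stayed positive without the highest library, null replicate 3, at 3.08.

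Plat and Plaur did not follow Plau. Plat, the tissue-type activator, was at 19.2, 17.3, 17.1, 31.8 and 84.5 FPKM, so that null replicate 1 lay just under both wt libraries. For Plat the log2 fold change was 0.67 ± 0.68 (SE, edgeR adjusted p = 0.61), and -0.19 without null replicate 3. Plaur, the urokinase receptor, was at 119.9, 53.4, 85.7, 107.1 and 46.8 FPKM, with 2.25-fold between the wt libraries and 2 of the 3 null values inside their range. With a log2 fold change of -0.66 ± 0.54 (SE), its adjusted p by edgeR was 0.525. In wt cells the receptor message was therefore more abundant per length than that of urokinase, and in null replicate 3 the order was the reverse, with 187 FPKM of Plau beside 46.8 FPKM of Plaur.

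The partners of the plasminogen system were read from a list of 9 genes, of which 7 were tested. By edgeR 0 were called in either direction (2 higher and 1 lower at an unadjusted p under 0.05), 5 had a log2 fold change above 0 and 2 below, and their median was 0.53 beside 0.29 over all genes, or -0.46 beside 0.16 without null replicate 3. Over all genes 59.3% were above 0, and edgeR gave 12.4% higher and 6.07% lower at an unadjusted p under 0.05. DESeq2 called 8.48% higher and 3.71% lower of the genes it gave an adjusted p. The same shares stand beside the lists of cluster neighbours and ADAMTS substrates below. Serpine2, an inhibitor of urokinase and thrombin, was at 4.70, 5.49, 51.1, 80.9 and 18.3 FPKM, and Serpinb2, an intracellular and secreted urokinase inhibitor, was at 1.00, 0.36, 5.95, 2.62 and 10.1 FPKM. Both stood higher in every null library, and DESeq2 called both higher. Anxa2 and S100a10, which together bind plasminogen and Plat at the cell surface, were abundant. Anxa2 was at 1382, 1598, 822, 1067 and 941 FPKM, lower in every null library and called lower by DESeq2, and S100a10 was at 498, 323, 278, 631 and 1019 FPKM, with groups that overlapped. Plg, the plasminogen gene itself, was at or under 0.05 FPKM in all 5 libraries.

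Mmp2, or gelatinase A, which cuts denatured and basement membrane collagen, was the most abundant Mmp gene of the wt cells. It was at 80.9 and 77.9 FPKM in wt and at 7.87, 51.1 and 5.65 FPKM in null, and the groups did not overlap. The mean was 79.4 ± 2.09 FPKM (SD, n = 2) in wt and 21.5 ± 25.6 FPKM (SD, n = 3) in null. Null replicate 2 lay nearest to wt, and the lowest levels were in replicates 1 and 3. The fit gave a log2 fold change of -2.50 ± 0.93 (SE), with an adjusted p of 0.236 by edgeR and 0.0604 by DESeq2, and it was -4.19 without null replicate 2. Mmp9, or gelatinase B, was at 1.77, 1.98, 11.2, 0.17 and 0.94 FPKM, so that it was highest in null replicate 1 and lowest in null replicate 2, the reverse of the order that Mmp2 had in these 2 libraries. Its log2 fold change of 0.64 ± 1.53 (SE) was -2.45 without null replicate 1. Mmp2 and Mmp9 together summed to 82.6, 79.9, 19.1, 51.3 and 6.59 FPKM.

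Among the membrane-type enzymes Mmp14, whose protein (MT1-MMP) cuts collagen at the cell surface and activates the Mmp2 precursor, varied little between libraries. It was at 33.6, 41.5, 70.8, 54.2 and 40.6 FPKM, within 1.75-fold over the null libraries. In the fit Mmp14 was at a log2 fold change of -0.02 ± 0.47 (SE, edgeR adjusted p = 0.983) with TMM and 0.55 with library totals alone, so that its direction depends on the scaling. Mmp14 thus ran from 33.6 to 70.8 FPKM while Mmp2, whose precursor its protein activates, ran from 5.65 to 80.9 FPKM.

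Mmp15, which encodes MT2-MMP, gave the largest positive fold change of the members. It was at 0.04 and 0.19 FPKM in wt (5 and 26 counts) and at 43.9, 0.53 and 2.44 FPKM in null (5783, 68 and 317 counts), and the groups did not overlap. Null replicate 1 alone, the library richest in keratins, set most of the mean of 15.6 ± 24.5 FPKM (SD, n = 3). A log2 fold change of 6.55 ± 2.30 (SE) came with an adjusted p of 0.226 by edgeR and 0.0011 by DESeq2 (0.0011 to 0.841 over its alternatives), and the fold was 2.95 without null replicate 1. Mmp17 (MT4-MMP, anchored by a lipid) was at 0.56, 0.38, 0.12, 0.28 and 9.5 FPKM, so that only null replicate 3 stood above wt, and its log2 fold change of 2.21 ± 1.79 (SE) was -1.81 without that library. Of the scarcer membrane-type genes, Mmp16 was at 2.44 and 1.02 FPKM in null replicates 2 and 3 and at 0 in replicate 1, beside 0.25 and 0.13 in wt. Mmp24 was at 2.26 FPKM in null replicate 1 and at or under 0.52 FPKM elsewhere, and Mmp25 did not exceed 0.19 FPKM.

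Each null library therefore had a membrane-type profile of its own. The 6 genes of this group summed to 35.0, 42.9, 117, 57.5 and 53.8 FPKM, and Mmp14 was the top gene of the group in every library.

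**Figure D3:**
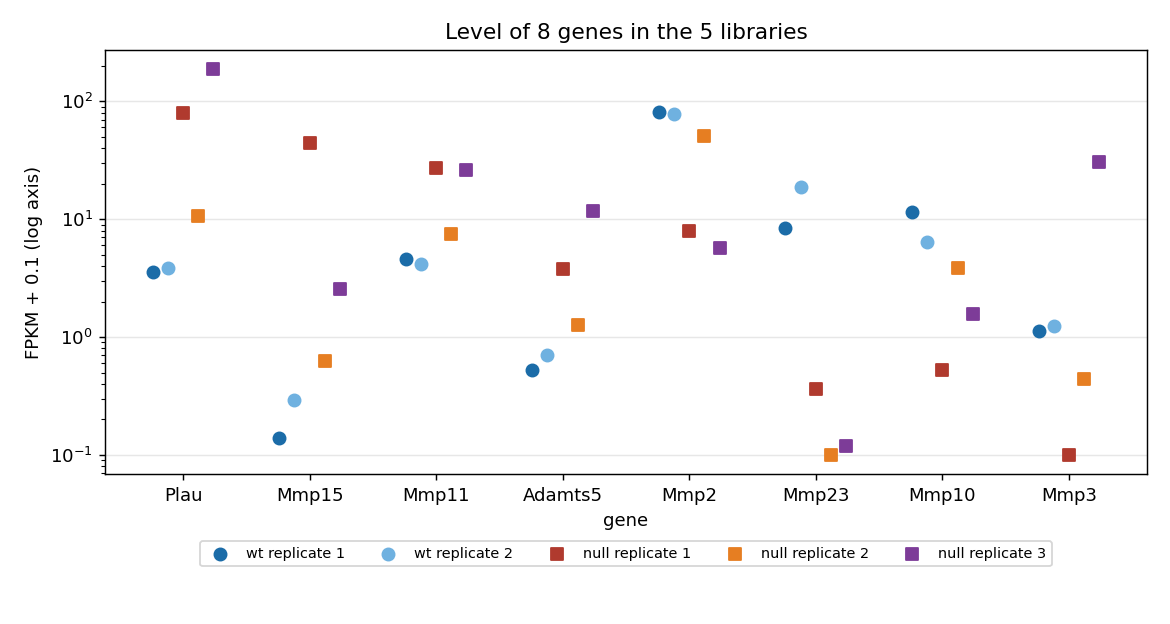
Level of 8 genes in each library as FPKM + 0.1 on a log axis, with circles for the 2 wt and squares for the 3 null libraries. Plau, Mmp15, Mmp11 and Adamts5 have all squares above both circles, Mmp2, Mmp23 and Mmp10 have all squares below both circles, and Mmp3 has a single square, null replicate 3 at 30.2 FPKM, above them.

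Stromelysins and collagenases gave different pictures gene by gene. Mmp11 (stromelysin 3), which is best known from tumor stroma and is activated inside the cell by furin, was at 4.47, 4.09, 26.8, 7.33 and 26.1 FPKM. Both wt libraries lay under all null libraries, with means of 4.28 ± 0.27 FPKM (SD, n = 2) and 20.1 ± 11 FPKM (SD, n = 3). Its log2 fold change, 1.67 ± 0.71 (SE, edgeR adjusted p = 0.271), stayed between 1.28 and 1.99 when any library was left out. Furin itself, which cuts the precursors of Mmp11 and of the membrane-type enzymes, was at 5.02, 4.70, 44.4, 22.2 and 8.12 FPKM, also higher in every null library. In FPKM 35.9% of all genes tested were. In TMM-scaled CPM null replicate 3 lay just above wt, at 28.6 against 25.6 and 27.6. The log2 fold change of Furin was 1.82 ± 0.79 (SE, edgeR adjusted p = 0.276).

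Mmp10 (stromelysin 2) was lower in every null library. It was at 11.4 and 6.26 FPKM in wt and at 0.43, 3.78 and 1.48 FPKM in null, and the groups did not overlap. Its estimated log2 fold change was -2.82 ± 0.90 (SE), with an adjusted p of 0.206 by edgeR and 0.0224 by DESeq2, and from 0.0224 to 0.841 over the alternatives. The fold was between -3.86 (without null replicate 2) and -2.38 (without null replicate 1) when a library was left out. Mmp3 (stromelysin 1), which shares substrates with Mmp10, was at 1.02, 1.14, 0, 0.34 and 30.2 FPKM, so that it was abundant in null replicate 3 and below wt in the other null libraries. Its log2 fold change of 2.59 ± 2.46 (SE) became -3.27 without null replicate 3. Mmp13, the main interstitial collagenase of the mouse, was at 1.47, 0.54, 14.3, 0.03 and 2.86 FPKM, with 1156 counts in null replicate 1 and 2 counts in null replicate 2. The other collagenases were close to absent, since Mmp1a and Mmp8 had at most 2 counts in any library.

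Of the 10 Mmp genes that lie side by side on chromosome 9, 8 were listed in at least 1 library, and 3 of these, Mmp13, Mmp3 and Mmp10, passed 1 FPKM. No other protein-coding gene lies between them in the RefSeq annotation of GRCm38.p6, which was used for gene order only. These 3 genes, which have other Mmp genes between them, each peaked in a different library, Mmp13 in null replicate 1, Mmp3 in null replicate 3 and Mmp10 in wt replicate 1. Mmp12, or macrophage elastase, had 20 and 9 counts in wt and 1, 0 and 0 counts in null, a ratio of 42.1 for wt to null in CPM, with an exact 95% interval from 6.98 to 1720 that covers counting error only. On the side of Mmp7, Tmem123 was at 9.83, 5.61, 7.69, 31.7 and 47.2 FPKM, Birc2 at 4.46, 4.39, 3.29, 3.47 and 11.2 FPKM, and Yap1, the effector of Hippo signaling, at 6.75, 5.87, 13.97, 40.6 and 21.8 FPKM. On the other side Dcun1d5 was at 43.8, 23.4, 15.5, 54.5 and 49.8 FPKM. Of the 6 neighbours tested, edgeR and DESeq2 each called 0 (edgeR 1 higher at an unadjusted p under 0.05), and their median log2 fold change was 0.56 beside 0.29 over all genes. That median was 0.84 beside 0.14 without null replicate 1, and 0.26 beside 0.16 without null replicate 3. Trpc6, a channel gene taken with the neighbours, was at or under 0.18 FPKM.

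**Figure D4:**
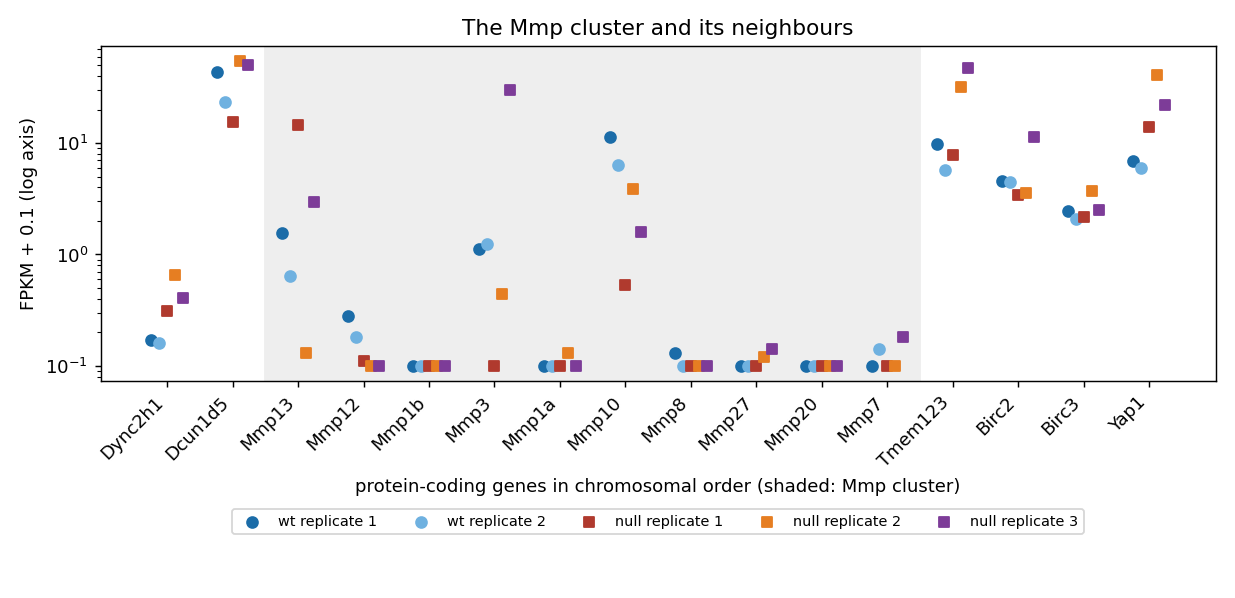
Level of the 10 Mmp genes of the chromosome 9 cluster (shaded) and 6 flanking genes in chromosomal order, as FPKM + 0.1 on a log axis, with circles for wt and squares for null libraries. Points at 0.1 are genes listed at 0 or in no list, and Mmp13, Mmp3 and Mmp10 each have a different library at the top (null replicate 1 at 14.3, null replicate 3 at 30.2 and wt replicate 1 at 11.4 FPKM) while Dcun1d5 and Yap1 are well above the floor in all 5.

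Of the 8 clustered genes with a promoter sequence, 6 share an AP-1 and a TATA motif, and a link of these motifs to the levels was not tested. RefSeq promoter sequences of GRCm38.p6 (250 bases before to 50 after each start) were found for 28 of the 42 members, 31 promoters in all, and were searched on both strands. The AP-1 site was searched as TGANTCA. For the TATA box the letters were TATAAA. The site of TCF factors, through which β-catenin acts, was searched as CTTTGAT. No match of one motif overlapped a match of another in a member's promoter. The AP-1 letters were present for 7 members, Plaur and the cluster genes Mmp1a, Mmp3, Mmp7, Mmp10, Mmp12 and Mmp13. These were 7 of the 31 member promoters, beside 7.81% of the 32851 promoters in the table. The TATA letters were present for 8 members, in 8 of the 31 member promoters, beside 13.6% of promoters. Both sets of letters together were present for 6 members, all in the cluster, in 6 of the 31 member promoters, beside 1.54% of promoters. The cluster genes belong to 1 gene family and lie side by side, so that their matches are not independent and no enrichment is read from these counts. The TCF letters were present only for Mmp7, in 2 of the 31 member promoters, beside 3.73% of promoters, and Mmp7 had at most 2 counts in any library. The windows of the 4 cluster genes discussed above are shown because they carry both motifs. Each runs from 90 bases before the start to 20 bases into the transcript, 5′ to 3′ on the plus strand, with the AP-1 and TATA letters in capitals:
Mmp13 (GRCm38.p6, chr9:7272424-7272533, plus strand): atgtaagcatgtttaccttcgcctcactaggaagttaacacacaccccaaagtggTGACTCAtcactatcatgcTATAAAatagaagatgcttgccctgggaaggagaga
Mmp12 (GRCm38.p6, chr9:7347284-7347393, plus strand): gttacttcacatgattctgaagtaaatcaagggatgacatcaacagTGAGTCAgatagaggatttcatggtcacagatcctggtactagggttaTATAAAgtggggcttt
Mmp3 (GRCm38.p6, chr9:7445732-7445841, plus strand): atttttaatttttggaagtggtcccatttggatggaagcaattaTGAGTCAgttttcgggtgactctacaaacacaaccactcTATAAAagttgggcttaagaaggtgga
Mmp10 (GRCm38.p6, chr9:7502252-7502361, plus strand): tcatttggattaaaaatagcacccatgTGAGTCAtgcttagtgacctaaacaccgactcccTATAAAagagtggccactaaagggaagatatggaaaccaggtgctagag

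In these windows the AP-1 letters began 35 bases before the start for Mmp13, 44 for Mmp12, 46 for Mmp3 and 63 for Mmp10. The TATA letters began 16 bases before the start for Mmp13, 7 for Mmp3 and 29 for Mmp10. For Mmp12 they began 4 bases after the annotated start, so that they lie inside the transcript. Mmp13 has TGACTCA and the others have TGAGTCA, and a further annotated start of Mmp12 has no such letters in its promoter. Plaur, on chromosome 7, carries the AP-1 letters 69 bases before its start, without the TATA letters, and it was above 46 FPKM in all 5 libraries:
Plaur (GRCm38.p6, chr7:24462393-24462502, plus strand): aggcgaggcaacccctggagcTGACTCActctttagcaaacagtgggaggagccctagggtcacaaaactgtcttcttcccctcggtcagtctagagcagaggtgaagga

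A match describes letters only, no binding was measured, and the start that the cells used is not known from these files.

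Mmp23, a small membrane-tethered enzyme that lacks the usual hemopexin domain, showed the clearest separation of the groups. It was at 8.24 and 18.6 FPKM in wt (360 and 820 counts) and at 0.26, 0 and 0.02 FPKM in null (11, 0 and 1 counts). All 3 null libraries were thus far below both wt libraries, which themselves differed 2.25-fold. In the fit Mmp23 had a log2 fold change of -7.66 ± 1.51 (SE), with an adjusted p of 0.18 by edgeR, the lowest of the members, and 7.89e-07 by DESeq2, and from 7.89e-07 to 0.841 over its alternatives. The fold was between -10.47 (without null replicate 1) and -6.92 (without wt replicate 2) when a library was left out. The two-sided exact permutation test over the 10 splits of 5 libraries gave p = 0.1, the smallest it can give. Mmp23 overlaps Mib2 in the annotation, and whether counting used strand is not given in the sources used here.

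Among the remaining Mmp genes, Mmp28 (epilysin) was also steady, at 4.64, 2.64, 5.29, 4.57 and 5.34 FPKM. Its log2 fold change of -0.08 ± 0.54 (SE) turned to 0.47 with library totals alone. In null replicate 2 the shorter of its 2 listed transcripts was given 47.9% of the gene's FPKM, and at most 11.7% in the other libraries. This split is an estimate from 309 counts in 1 library, between transcripts of 2311 and 2269 bases, and a difference in form was not tested. Mmp19 was at 1.29, 1.11, 0.98, 1.02 and 5.97 FPKM, set apart by null replicate 3 alone. Mmp7 and Mmp27 had at most 2 counts in any library.

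The ADAMTS enzymes that cut aggrecan and versican summed to 2.10 and 2.83 FPKM in wt and to 6.03, 7.16 and 24.9 FPKM in null. Of the 5, 4 had a log2 fold change above 0, beside 59.3% of all genes, and without null replicate 3 it was 2 (Adamts1 and Adamts5) of the 4 then tested, with Adamts9 at -1.01. Adamts1 was at 0.45 and 0.90 FPKM in wt and at 1.81, 5.21 and 7.29 FPKM in null, with a log2 fold change of 2.17 ± 0.78 (SE, edgeR adjusted p = 0.23), or 1.63 with wt replicate 1 left out and 2.80 with wt replicate 2 left out. Adamts5, the main aggrecanase of mouse cartilage, was at 0.43 and 0.60 FPKM in wt and at 3.68, 1.16 and 11.7 FPKM in null. Both genes were higher in all 3 null libraries than in both wt libraries. For Adamts5 the log2 fold change was 2.80 ± 1.02 (SE), with an adjusted p of 0.232 by edgeR and 0.0429 by DESeq2, from 0.0429 to 0.841 over the alternatives, and it was 1.63 without null replicate 3. Adamts4 was at 0.94, 1.19, 0.38, 0.71 and 5.16 FPKM, so that only null replicate 3 exceeded wt, and its log2 fold change of 0.32 ± 1.15 (SE) was -1.61 without it. Adamts9 and Adamts15 stayed under 1 FPKM in every library.

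Their substrates were read from a list of 7 genes, of which 5 were tested. By edgeR 0 were called (1 higher at an unadjusted p under 0.05), and their median log2 fold change was 0.88 beside 0.29 over all genes, or 0.27 beside 0.16 without null replicate 3. Vcan, the versican gene, was at 0.79, 0.92, 0.76, 4.71 and 1.37 FPKM, and Acan, the aggrecan gene, was at 2.03, 1.73, 1.51, 0 and 0.14 FPKM. Thbs1, which encodes thrombospondin 1, a substrate of Adamts1, was at 2.82, 5.13, 39.1, 109.2 and 109.6 FPKM, higher in every null library, and DESeq2 called it higher. Vwf, the substrate of the Adamts13 enzyme, was at or under 0.07 FPKM, as Adamts13 was at or under 0.01.

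Adamts2, which removes the amino-terminal propeptide of fibrillar procollagens, had the same order among the null libraries as the type I collagen gene Col1a1. It was at 5.76 and 6.02 FPKM in wt and at 0.07, 1.15 and 7.92 FPKM in null, where Col1a1 was at 161 and 118 FPKM in wt and at 1.11, 104 and 570.5 FPKM in null. In FPKM null replicate 1 was the lowest of all 5 libraries for both genes and null replicate 3 the highest, whereas in TMM-scaled CPM Adamts2 was at 44.0 in null replicate 3, under both wt libraries at 44.7 and 55.2. With a log2 fold change of -1.56 ± 1.41 (SE) for Adamts2, edgeR's adjusted p was 0.564, and the fold was -3.92 without null replicate 3. Adamts14, with a similar role, was at 3.53, 1.06, 0.01, 4.07 and 2.69 FPKM, also lowest in null replicate 1. Adamts3, which acts on other procollagens and on a lymphatic growth factor, was at most at 0.21 FPKM and was highest in null replicate 1.

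Of the other ADAMTS genes, Adamts7 led null replicate 2. It was at 2.34, 2.01, 1.27, 7.54 and 1.44 FPKM, so that 1 null library stood above wt and the others below. Its log2 fold change of 0.03 ± 0.85 (SE) changed sign with DESeq2's scaling, at -0.05, and was -1.32 without null replicate 2. Adamts10, which encodes a fibrillin-binding enzyme, was between 0.55 and 2.03 FPKM in the 5 libraries. Adamts6, Adamts12, Adamts16 and Adamts17 stayed under 1 FPKM in every library.

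Timp2 was the most abundant member in all libraries except null replicate 3, where Timp1 was. Timp2, which inhibits Mmp2 and also takes part in its activation by Mmp14, was at 339, 398, 245, 445 and 190.2 FPKM, so that null replicate 2 was the highest and null replicate 3 the lowest. In FPKM the groups overlapped, whereas in TMM-scaled CPM every null library lay below both wt libraries, at 1490 and 2000.0 in wt and 831, 1340 and 576 in null. Timp2 had a log2 fold change of -0.93 ± 0.47 (SE, edgeR adjusted p = 0.331), below 0 under all alternatives.

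Timp1 was at 68.5, 79.8, 44.8, 101 and 351 FPKM, highest in null replicate 3, where Plau and Mmp3 also were highest. The log2 fold change of 0.53 ± 0.82 (SE) was -0.66 without that library. Both of its listed transcripts were present in every library, and the longer of them held between 25.0% and 41.4% of the gene's FPKM. Timp3, which is bound to the matrix and also inhibits ADAM and ADAMTS enzymes, was at 34.7, 29.6, 3.55, 46.8 and 73.8 FPKM. Null replicate 1 was thus lower by a wide margin than the other 4 libraries, and the null libraries differed 20.8-fold. The log2 fold change of Timp3 was -0.26 ± 0.99 (SE), and 0.36 with library totals alone.

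Timp4 had at most 11 counts. Timp1, Timp3 and Timp4 each overlap a synapsin gene in the annotation (Syn1, Syn3 and Syn2), and these were scarce, with Syn1 at 2.10, 1.72, 1.31, 1.13 and 0.63 FPKM and the other synapsin genes at or under 0.20 FPKM.

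**Figure D5:**
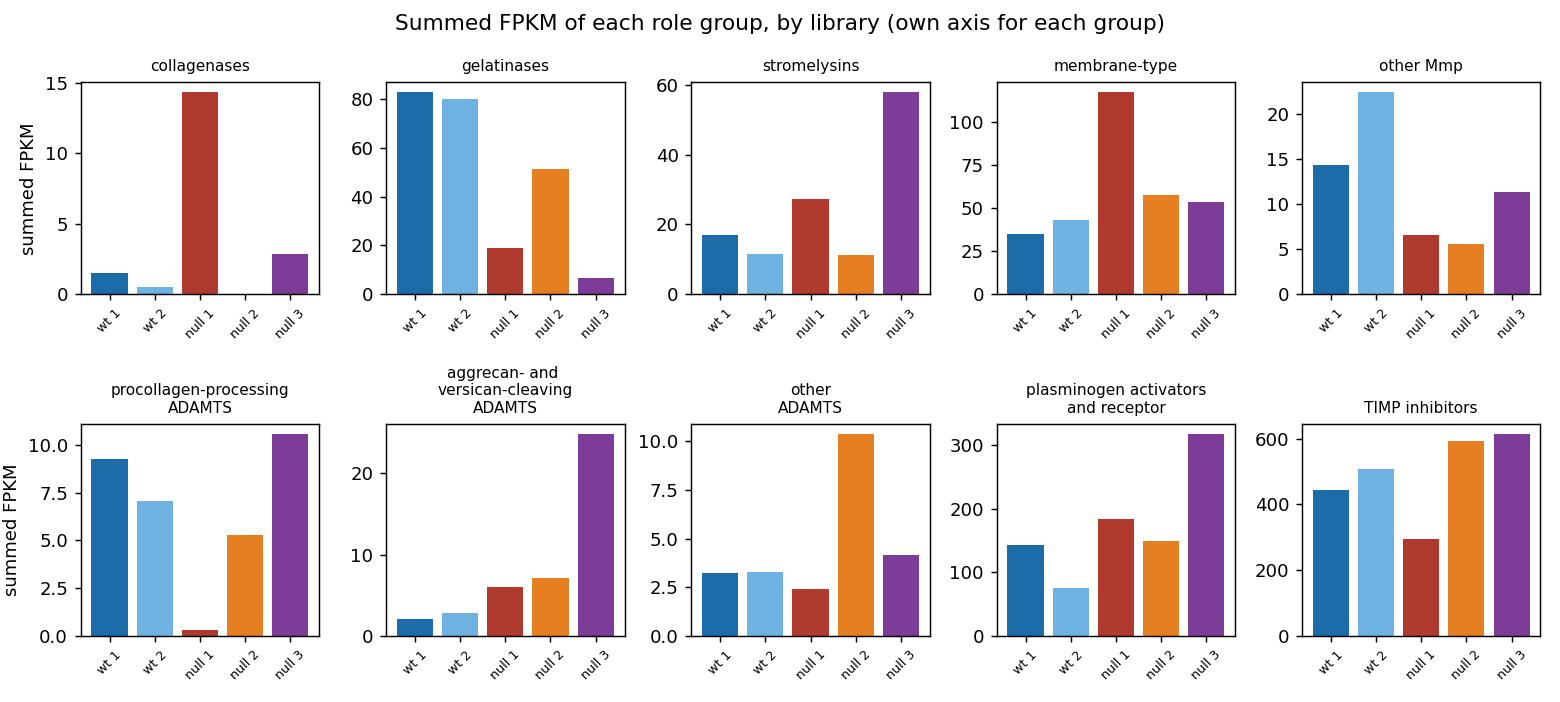
Summed FPKM of each of the 10 role groups in each library, with an own axis from 0 for each group and 1 bar per library. Gelatinases are tallest in the wt libraries (82.6 and 79.9 FPKM), collagenases and membrane-type enzymes in null replicate 1 (14.3 and 117 FPKM), the remaining ADAMTS genes in null replicate 2 (10.4 FPKM), and stromelysins and plasminogen activators with their receptor in null replicate 3 (57.8 and 318 FPKM).

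Read by library, the null lines therefore carried 3 different sets of members. Null replicate 1 combined Mmp15, Mmp9, Mmp13, Mmp11 and Plau with little Mmp2, Timp3 or Adamts2. Null replicate 2 had 51.1 FPKM of Mmp2 and, in FPKM, more Timp2 and Timp3 than either wt library (in TMM-scaled CPM it had less of both, 182 against 197 and 192 for Timp3), with Adamts7 highest and Mmp9 and Mmp13 at or under 0.17 FPKM. Null replicate 3 had the highest Plau, Plat, Timp1, Timp3, Mmp3, Mmp17, Adamts4 and Adamts5 with 5.65 FPKM of Mmp2. Relative to the wt mean, the median member differed by -0.18, 0.40 and 1.08 on the log2(FPKM + 0.1) scale in null replicates 1, 2 and 3, beside 0.55, 0.62 and 0.72 for the median gene. In FPKM, 7 tested members lay higher in all null libraries (Adamts1, Adamts3, Adamts5, Adamts6, Mmp11, Mmp15 and Plau) and 4 lower (Mmp2, Mmp10, Mmp23 and Mmp25). These were 20.6% and 11.8% of the members tested, beside 35.9% and 7.22% of all genes. In TMM-scaled CPM the shares were 20.6% and 17.6%, beside 22.6% and 17.3% of all genes, and 6 members lay lower, with Adamts2 and Timp2 added. Adamts3, Adamts6 and Mmp25 were scarce, under 1 FPKM in every library. Adamts3 had 0, 3, 48, 16 and 5 counts, Adamts6 had 5, 6, 15, 14 and 42, and Mmp25 had 20, 20, 0, 10 and 4. For Adamts3 the gap between 3 counts in wt replicate 2 and 5 in null replicate 3 can come from counting error alone.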

How the data were processed

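Libraries were made from total RNA with a TruSeq RNA kit and sequenced on an Illumina HiSeq instrument. The files the authors deposited hold 2 values for every RefSeq transcript listed in a library, an estimated count and an FPKM, and the list starts at an FPKM of 0.01. The aligner, counting program, build and strand setting are not given in the sources used here. Both deposited values were summed per NCBI gene number (17866 of 17923 matched a RefSeq symbol), and the estimated counts were rounded. The contrast was fitted over all genes with edgeR 4.0.16 (R 4.3.3, TMM, filterByExpr, glmQLFTest, Benjamini-Hochberg, threshold 0.05). Each SE is the log2 fold change divided by the root of the F statistic. DESeq2 1.42.0, limma 3.58.1 on log2(FPKM + 0.1, 0.01 or 1), other scalings and filters, omission of each library and a replicate block were alternatives. The fits were tested on simulated data with 200 genes changed, at a dispersion (squared biological coefficient of variation) of 0.05 or 0.35. At 0.35, edgeR recovered 2.5% of log2 fold changes of 2 and 99% of those of 5. DESeq2 recovered 22.5% and 98.5%, with 17 and 52 false calls. The common dispersion of these data was higher, at 0.482, so that 0 calls by edgeR do not show that no gene changed. Members with at least 5 FPKM in some library, or at least 1 FPKM and groups that did not overlap, are given in full, and of each other list the DESeq2-called genes and the 4 most abundant may be named. Other named genes were chosen after their values were seen. The members, roles and lists were chosen with earlier results of these data known. Protein sequences were not analysed here. A gene absent from a library's list was given 0.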

Additional observations from a re-analysis of the deposited data

How the results depend on the processing

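Member calls stayed at 0 higher and 0 lower under all 15 alternatives except DESeq2, which called 3 higher and 2 lower among members and 1113 and 487 among all genes. Of all genes, edgeR called 4 lower with no filter and 1 lower with at least 10 counts in every library, and limma called 1 higher and 5 lower on log2(FPKM + 0.1), 1 and 3 with 0.01 added, and 1 and 7 with 1 added. Leaving out each library in turn gave 0 calls in either direction and a member median between -0.19 and 0.66. Since no gene was called with all libraries, these counts of 0 say nothing on stability, and without a wt library the lone wt library is assumed to vary like the null group. List medians without null replicate 1 or 3 were added after seeing the data. Of 341 values for the 23 members in full, 291 kept direction and side of the threshold, 45 turned direction and 5 passed it in DESeq2. Of the 23, 11 never turned, namely Adamts1, Adamts2, Adamts5, Mmp10, Mmp11, Mmp15, Mmp2, Mmp23, Plau, Plaur and Timp2. The 23 were chosen by levels in these same libraries. Plau, Mmp15, Mmp11, Adamts1 and Adamts5 reached 5 FPKM only in null libraries, and Mmp10 and Mmp23 only in wt. A steady direction was thus partly built into the choice, and no such share was taken over all genes. The replicate number is not known to pair libraries (correlations of deviations -0.111 for both shared numbers), and since replicate 3 exists in null only, a replicate block in effect leaves that library out. With the replicate block the member median was -0.71 and 0 genes were called. The log2 fold changes that turned with the block were -0.04 for Adamts7, 0.17 for Mmp14, -4.21 for Mmp3, -0.92 for Mmp9, -0.62 for Mmp13, -1.59 for Adamts4, -1.84 for Mmp17, -0.83 for Mmp19, -0.20 for Plat and -0.70 for Timp1. With RLE and with DESeq2 Adamts7 was -0.05, and with no filter -0.03. With library totals Mmp14 was 0.55, Mmp28 0.47 and Timp3 0.36. On log2(FPKM + 0.1), + 0.01 and + 1 and on 0.1 with no filter, Mmp14 was 0.53, 0.53, 0.52 and 0.53, and Mmp28 was 0.52, 0.53, 0.42 and 0.52. On 0.1, 0.01 and 0.1 with no filter, Mmp3 was -0.10, -1.20 and -0.10, and Mmp9 was -0.42, -0.60 and -0.42. Leaving out each library gave ranges of -1.32 to 0.39 for Adamts7, -0.35 to 0.15 for Mmp14, -0.45 to 0.18 for Mmp28, -0.99 to 0.24 for Timp3, -3.27 to 3.12 for Mmp3, -2.45 to 1.10 for Mmp9, -0.13 to 2.72 for Mmp13, -1.61 to 0.76 for Adamts4, -1.81 to 2.71 for Mmp17, -0.87 to 0.87 for Mmp19, -0.19 to 0.99 for Plat and -0.66 to 0.91 for Timp1. Apart from which libraries or genes an alternative uses, the cause was not tested. The biological coefficient of variation in the edgeR fit was 0.694.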

Other observations

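Of 11 membrane serine proteases and their inhibitors 10 were tested, 8 with a log2 fold change above 0, and their median was 3.58 beside 0.29 over all genes, or 0.73 beside 0.14 without null replicate 1, with 0 called by edgeR (1 at an unadjusted p under 0.05) and 2 called higher by DESeq2 (Hpn and Spint1). Hpn, which encodes hepsin, was at 0, 0.02, 52.1, 0.02 and 1.89 FPKM, and Spint1, which encodes an inhibitor of hepsin and matriptase, was at 1.20, 1.22, 119 and 0.36 FPKM in the first 4 libraries and at 9.71 FPKM in null replicate 3. Spint2, a related inhibitor, was at 27.8, 27.2, 685, 25.6 and 127 FPKM. Null replicate 1, where Krt7 and Cdh1 were also highest, held the top level of these 3 genes. Htra1, a secreted serine protease, was instead at 494, 554, 476, 129.6 and 326 FPKM.

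Of 9 ADAM genes, membrane sheddases, 7 were tested, 6 had a log2 fold change above 0, and the median was 1.18 beside 0.29 over all genes, or 0.58 beside 0.14 without null replicate 1. For these lists the shares over all genes were 59.3% above 0, 12.4% higher and 6.07% lower at an unadjusted p under 0.05 by edgeR, and 8.48% called higher and 3.71% called lower by DESeq2. None was called by edgeR (2 higher at an unadjusted p under 0.05), and DESeq2 called Adam10 higher, at 3.21, 3.18, 12.4, 19.2 and 14.3 FPKM. Adam8 was at 1.30, 1.52, 73.4, 1.13 and 5.61 FPKM, a further gene led by null replicate 1. Among 7 ADAMTS-like genes, which resemble ADAMTS enzymes without the protease domain, edgeR called 0 of the 6 tested (1 higher at an unadjusted p under 0.05), with a median log2 fold change of 1.79, or 1.04 without null replicate 1. DESeq2 called Thsd4 higher, at 0.04, 0.01, 5.4, 0.03 and 0.79 FPKM. Of the 10 listed genes among 11 other regulators of metalloproteinases 7 were tested, 0 were called by edgeR (1 in each direction at an unadjusted p under 0.05) their median log2 fold change was 1.08 (-0.53 without null replicate 3), and DESeq2 called Pcsk6 higher. Pcsk6, a furin-like convertase, was at 0.07, 0.05, 13.6, 2.18 and 2.24 FPKM. Thbs2, whose protein clears Mmp2 from the cell surface, was at 175 FPKM in null replicate 3 and at or under 1.05 FPKM elsewhere, and Bsg, an inducer of metalloproteinases, was at 1249, 1902, 1096, 522 and 984 FPKM.

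The lysosomal cathepsins summed to 1450 and 1460 FPKM in wt and 2430, 1240 and 1740 FPKM in null, with 6 of the 12 tested on each side of 0 and a median log2 fold change of 0.14, which was -0.27 without null replicate 1 and -0.16 without null replicate 3. None was called by edgeR (1 in each direction at an unadjusted p under 0.05), while DESeq2 called Ctsf higher and Ctsl lower. Ctsl was at 821, 798, 345, 501 and 656 FPKM. Ctsz was at 108, 141, 107 and 218 FPKM in 4 libraries and at 0.07 FPKM (3 counts) in null replicate 2. Of 4 cystatins, 3 were tested and 0 called by edgeR (0 at an unadjusted p under 0.05) or DESeq2, their median log2 fold change was 0.06 (-0.25 and -0.16 without null replicates 1 and 3), and Cst3 was at 559, 572, 283, 451 and 913 FPKM.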
